A study of Danio rerio with 49 samples.

Results

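The 10 genes described here encode hormones of the pituitary and neuropeptides of the hypothalamus in zebrafish. The pituitary genes were pomca, gh1, prl, tshba and cga, and the hypothalamic genes were oxt, avp, crhb, hcrt and agrp. They were chosen by name in the deposited count tables, ignoring case, and pomca, tshba and crhb were found under the name without its final letter (POMC, TSHB and CRH). The 10 names fell on 11 of the 32520 gene identifiers that held values, because 2 identifiers carried the name CGA. Their identifiers were ENSDARG00000043135 (pomca), ENSDARG00000038185 (gh1), ENSDARG00000037946 (prl), ENSDARG00000033726 (tshba), ENSDARG00000040479 (cga), ENSDARG00000042845 (oxt), ENSDARG00000058567 (avp), ENSDARG00000027657 (crhb), ENSDARG00000070932 (hcrt) and ENSDARG00000069089 (agrp). The second cga identifier, ENSDARG00000103345, held 1 count in replicate 2 of wildtype bad-responder heads and was at 0 in the other 24 libraries used, so cga below means the first.

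The study compared MZrlig1 fish, mutant for rlig1 (an RNA ligase gene) in both the maternal and the zygotic genome, with wildtype fish, and the labels name neither the mutant allele nor the wildtype strain. Of the 49 libraries, 25 were used. Whole larvae at 5 days post fertilization (dpf) and whole embryos at 1 dpf gave 3 libraries for each genotype and age, and were raised in the dark. Heads dissected at 5 dpf came from larvae raised in a light/dark cycle and sorted by their response to visual motion, with 4 libraries of bad-responder and 2 of good-responder MZrlig1 larvae, and 3 of bad-responder and 4 of good-responder wildtype larvae. Each library was a pool of 8 animals or heads. The labels do not say whether the pools of a group came from separate clutches, so p-values measure the spread between pools.

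The pituitary is an endocrine gland under the brain that releases peptide hormones into the blood. Neurons of the hypothalamus control it, and in teleost fish their axons reach the gland directly. The hypothalamic peptides described here also act within the brain, on stress responses, water balance, social behaviour, arousal and feeding.

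The targeted gene, rlig1, held 4 counts in total over the 12 MZrlig1 libraries, all of them in replicate 4 of bad-responder heads, and measured 7.48 to 13.7 CPM (counts scaled to library size) in the 13 wildtype libraries. Total counts ranged from 12158453 to 16137782. Replicate a of MZrlig1 at 1 dpf stood apart. Genes with a count above 0 numbered 7815 there and 22619 to 24169 in the remaining 24 libraries, 49.32% of its counts fell on ribosomal protein genes, and all 10 genes described here were at 0 in it, so results that rest on it are given with and without it. The head label was checked with marker lists. The summed level of 6 skeletal muscle markers was 2807 to 6532 CPM in heads and 13129 to 17703 CPM in whole larvae, while the 8 lens markers summed to 2441 to 4516 CPM in heads and 1429 to 2128 CPM in whole larvae. Other lists did not separate. Retina markers summed to 7093 to 13344 CPM in heads (median 8226) and 6959 to 8195 CPM in whole larvae (median 7522). Intestine and kidney markers summed to 448 to 1079 CPM in heads (median 732.2) and 851.7 to 1096 CPM in whole larvae (median 942.5). Markers of 2 organs behind the head, the liver and the exocrine pancreas, were not depleted. Liver markers summed to 2229 to 7730 CPM in heads (median 5276) and 3089 to 5414 CPM in whole larvae (median 3974), and exocrine pancreas markers to 265 to 5593 CPM in heads (median 3285) and 787 to 2398 CPM in whole larvae (median 2175).

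On the deposited FPKM scale, which divides by gene length and so allows genes to be compared, the growth hormone gene gh1 was the most abundant of the 10 in heads. Its level was 37.8 ± 8.73 FPKM in MZrlig1 heads (SD, n = 6) and 35.4 ± 5.90 FPKM in wildtype heads (n = 7). The gene of the oxytocin-like nonapeptide, oxt, came next with 26.3 ± 13.1 FPKM in MZrlig1 heads and 24.4 ± 5.45 FPKM in wildtype heads. In both genotypes crhb, pomca, agrp and avp followed between 11.1 and 19.1 FPKM, and neighbours in order among these 4 differed by less than the larger of their SDs. Further down stood hcrt, prl, cga and tshba. The lowest, tshba, measured 1.23 ± 0.808 FPKM in MZrlig1 heads and 2.11 ± 0.752 FPKM in wildtype heads. Whole larvae at 5 dpf also had gh1 first, at 15.4 ± 2.16 FPKM in MZrlig1 and 14.1 ± 5.07 FPKM in wildtype (n = 3 each). The order at 1 dpf was another one. There agrp led in wildtype at 15.4 ± 3.63 FPKM, ahead of hcrt at 1.23 ± 1.58 FPKM, and in MZrlig1 the FPKM of agrp was 0, 12.1 and 9.27 in replicates a, b and c.

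Between 1 and 5 dpf the levels of gh1, pomca, oxt and crhb, near the detection limit at 1 dpf, rose in wildtype whole animals. There agrp was already present at 1 dpf and fell by 0.70 on the log2 scale. The call of agrp was lost by another test and without some single libraries, as given below. Levels from here on are CPM scaled by the trimmed mean of M-values (TMM). Tests are edgeR quasi-likelihood tests on the counts, adjusted over all genes by the Benjamini-Hochberg method and called under an adjusted p of 0.05. Of the 11 identifiers, 6 passed the filter on low counts in wildtype, and 4 rose and 1 fell. The 4 that rose, gh1, pomca, oxt and crhb, summed to 1, 3, 3 and 10 counts in wildtype at 1 dpf. They passed the filter through 5 dpf, so a fall could hardly have been called for them. Over all genes tested in that comparison, 39% rose and 36.3% fell, so a change between these ages was the common case. In MZrlig1, 6 passed and gh1, oxt and crhb rose, against 7.59% of all genes. These 3 summed to 0, 0 and 4 counts in MZrlig1 at 1 dpf and also passed the filter through 5 dpf. Without replicate a of 1 dpf, pomca joined them, and the share of all genes that rose was 36.7%. The MZrlig1 calls of gh1, oxt and crhb were lost on leaving out any other single library of the 6, with adjusted p-values of 0.101 to 0.175. In these bulk samples, fewer cells of a type and less RNA per cell cannot be told apart.

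The pituitary genes that rose did so from almost no counts. Growth hormone, gh1, had 11.7, 16.2 and 15.1 CPM in MZrlig1 larvae at 5 dpf and 0 in all 3 MZrlig1 libraries at 1 dpf, a level at least 202-fold higher at 5 dpf when 3 counts are allowed over the 1 dpf group, and at least 133-fold without replicate a. Its log2 fold change was called with an adjusted p of 0.0274, and of 3.9e-06 without replicate a. In wildtype, gh1 had 14.9, 15.3 and 7.40 CPM at 5 dpf and a single count at 1 dpf, which gives a 560-fold ratio with an exact counting interval of 100 to 22141 and an adjusted p of 1.6e-08. The groups of the 2 ages did not overlap in either genotype, and the share of all genes for which this held is not given here.

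The precursor of adrenocorticotropin and melanocyte-stimulating hormone, pomca, had 7.56, 11.4 and 9.99 CPM in MZrlig1 larvae at 5 dpf, and 0, 0 and 0.262 CPM at 1 dpf. Its fitted difference missed the threshold at an adjusted p of 0.0523. It passed with all libraries kept when DESeq2 size factors were used (0.0369) and by DESeq2's own test (5e-09), and at 3.7e-05 without replicate a of 1 dpf, with a log2 fold change of 6.03 ± 0.60 (SE). Wildtype larvae had 9.16, 4.91 and 3.66 CPM at 5 dpf and 0, 0 and 0.218 CPM at 1 dpf, an 86.3-fold ratio (interval 29.2 to 421, adjusted p 3.3e-06). Only replicate c of each genotype held pomca counts at 1 dpf, 4 in MZrlig1 and 3 in wildtype.

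The shared alpha subunit of the glycoprotein hormones, cga, and the thyrotropin beta subunit, tshba, were too low in whole animals to pass the filter. Over 3 libraries each, cga summed to 18 counts in MZrlig1 larvae at 5 dpf and 0 at 1 dpf, and to 20 counts in wildtype larvae at 5 dpf and 1 at 1 dpf. The same sums for tshba were 8 and 0 in MZrlig1, and 13 and 0 in wildtype, so that 5 dpf exceeded 1 dpf at least 2.69-fold in MZrlig1 (at least 1.77-fold without replicate a) and at least 4.4-fold in wildtype. These bounds cover counting error only. The prolactin gene, prl, was already present at 1 dpf, and the ages overlapped. It held 6 and 13 counts in MZrlig1 replicates b and c and 8 to 14 counts in wildtype at 1 dpf, and its log2 fold change from 1 to 5 dpf was 1.1 ± 1.02 in MZrlig1 (adjusted p 0.63), or 0.57 ± 0.65 without replicate a (adjusted p 0.461), and 0.60 ± 0.61 in wildtype (adjusted p 0.385).

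Among the hypothalamic genes, oxt rose to 1.56, 3.18 and 2.43 CPM in MZrlig1 larvae at 5 dpf, against 0 in all 3 libraries at 1 dpf. That is at least 33.6-fold (adjusted p 0.0277), or at least 22.1-fold without replicate a (adjusted p 0.000316). In wildtype, oxt measured 2.38, 2.61 and 2.32 CPM at 5 dpf, against 0.0611, 0.125 and 0 CPM at 1 dpf (35.9-fold, interval 11.9 to 177, adjusted p 2.4e-06). The 3 wildtype larval values lay within a narrow band, with an SD of 0.155 CPM around a mean of 2.44 CPM.

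The corticotropin-releasing hormone gene crhb, whose peptide drives the release of adrenocorticotropin, had 4.15, 6.13 and 5.00 CPM in MZrlig1 larvae at 5 dpf, against 0, 0.0662 and 0.197 CPM at 1 dpf. Its log2 fold change was 5.53 ± 0.99 (SE, adjusted p 0.0280), and 5.11 ± 0.51 without replicate a. Wildtype crhb measured 4.69, 3.67 and 5.08 CPM at 5 dpf, against 0.428, 0.0623 and 0.145 CPM at 1 dpf (4.23 ± 0.46, adjusted p 1.5e-06). Counts of avp, which encodes the vasopressin-like antidiuretic peptide, summed to 31 in MZrlig1 larvae at 5 dpf and 0 at 1 dpf, at least 10.4-fold higher, or at least 6.86-fold without replicate a. In wildtype avp was untested, with 15, 19 and 3 counts at 5 dpf and 1, 4 and 0 counts at 1 dpf.

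The other hypothalamic genes were present at both ages. The hypocretin (orexin) gene hcrt, a marker of arousal neurons, had 2, 6 and 5 counts in MZrlig1 larvae at 5 dpf and 0, 7 and 10 counts at 1 dpf, and 1, 2 and 3 counts in wildtype larvae at 5 dpf and 2, 9 and 0 counts at 1 dpf. Ages overlapped in both genotypes. The gene of agouti-related peptide, agrp, which promotes feeding, measured 4.00, 4.58 and 2.97 CPM in MZrlig1 at 5 dpf and 0, 4.04 and 3.21 CPM at 1 dpf. Its log2 fold change there was 0.63 ± 1.32, and 0.01 ± 0.30 (adjusted p 0.98) without replicate a. In wildtype agrp measured 3.68, 3.61 and 2.99 CPM at 5 dpf and 3.79, 6.04 and 5.82 CPM at 1 dpf (-0.70 ± 0.26, adjusted p 0.025). The highest wildtype value at 5 dpf was 3.68 CPM and the lowest at 1 dpf was 3.79 CPM. The call was lost without 1 dpf replicate b (adjusted p 0.0929) or c (0.0539) or without 5 dpf replicate c (0.0914). DESeq2 gave an adjusted p of 0.0529 for it, and edgeR with the replicate number as a block gave 0.0535.

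**Figure D1:**
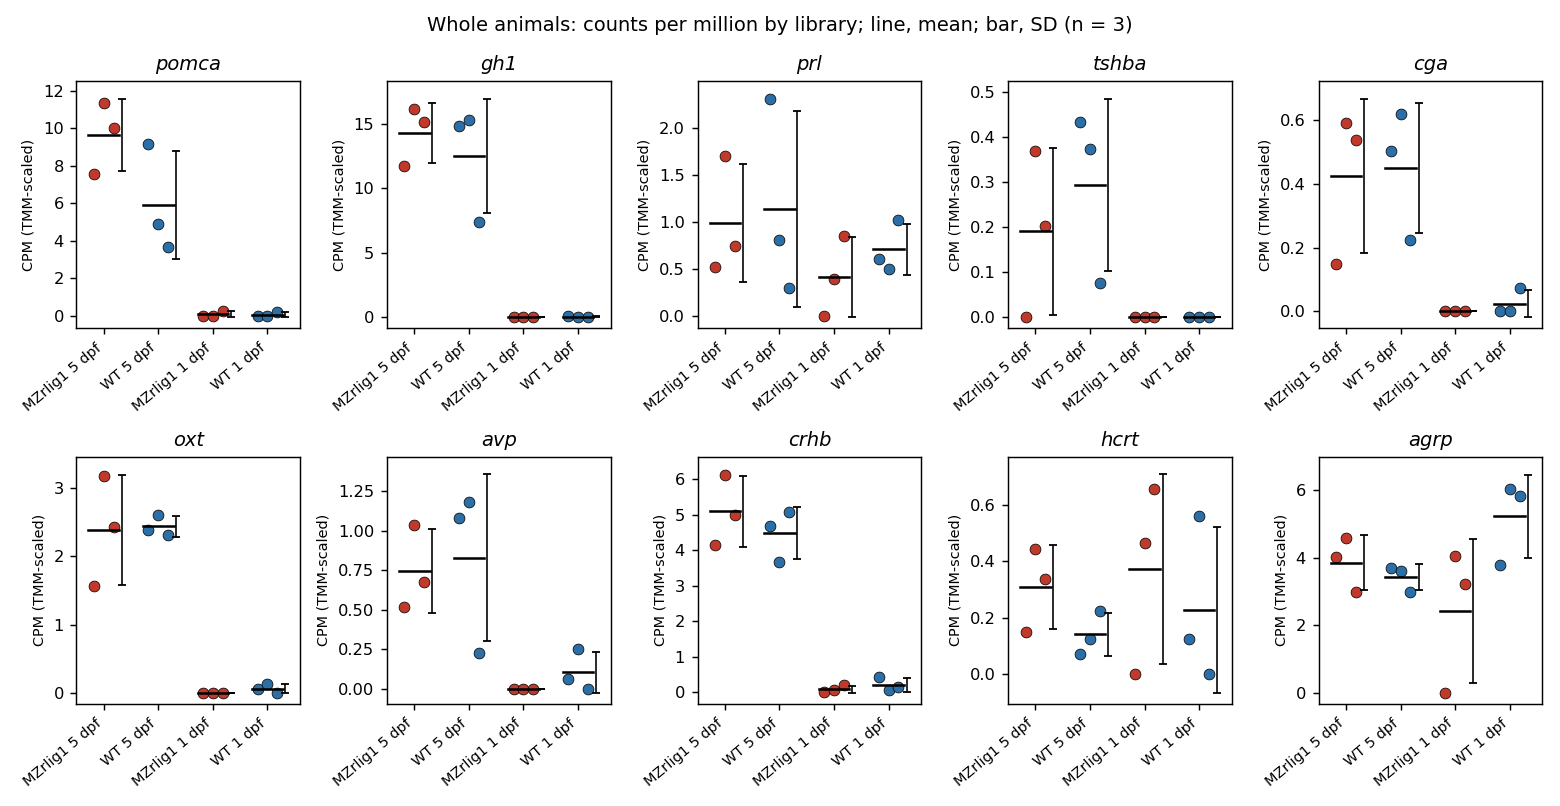
TMM-scaled CPM (linear axes) of the 10 genes in each whole-animal library, with MZrlig1 in red and wildtype in blue, 5 dpf to the left of 1 dpf. Horizontal lines are means and bars are SDs (n = 3). The genes with counts at 1 dpf comparable to 5 dpf are agrp, hcrt and prl. Exceptions are MZrlig1 replicate a, at 0 in each of them, and wildtype replicate c, at 0 for hcrt.

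All 10 genes were higher on average in heads than in whole larvae at 5 dpf in both genotypes, and most passed the test. In wildtype, 9 of the 10 identifiers tested rose and none fell, while 13.4% of all genes rose. In MZrlig1, 6 of 10 rose and none fell, while 8.21% of all genes rose. Of the genes tested, cga, tshba and hcrt were too low in whole larvae alone to pass the filter. They entered through the heads, so a lower level in heads could hardly have been called for them. The median log2 fold change over the tested genes of the list was 1.41 in MZrlig1 and 1.68 in wildtype, beside 0.0152 and -0.012 over all genes. Whether the genotypes differed in head enrichment was not tested. Rearing light, behavioural sorting and dissection differed together with the tissue and cannot be told apart from it.

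The largest fitted enrichment was that of cga, which passed the filter only through the heads. By the SEs it was not resolved from those of oxt in MZrlig1 and hcrt in wildtype, given below. Its larval levels rested on 18 counts in MZrlig1 and 20 in wildtype, summed over 3 libraries each. The level of cga was 0.887 to 4.53 CPM with a median of 2.52 in MZrlig1 heads. MZrlig1 larvae had 0.148, 0.591 and 0.540 CPM (log2 fold change 2.51 ± 0.57, adjusted p 0.0107). Wildtype heads had 1.65 to 5.10 CPM with a median of 3.01, against 0.505, 0.622 and 0.224 CPM in wildtype larvae (2.80 ± 0.40, adjusted p 0.000858). The MZrlig1 call was lost without larval replicate a (adjusted p 0.0631).

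For gh1, MZrlig1 heads had 23.7 to 43.7 CPM with a median of 36.2, against 11.7 to 16.2 CPM in MZrlig1 larvae, and wildtype heads had 23.8 to 38.1 CPM with a median of 34.0, against 7.40 to 15.3 CPM in wildtype larvae. The log2 fold changes were 1.29 ± 0.22 in MZrlig1 and 1.30 ± 0.23 in wildtype. For pomca they were 0.74 ± 0.24 in MZrlig1 (adjusted p 0.0543) and 1.53 ± 0.28 in wildtype (adjusted p 0.00297). In MZrlig1 the pomca levels overlapped, with heads at 8.71 to 20.2 CPM and larvae at 7.56 to 11.4 CPM. Without replicate 2 of MZrlig1 bad-responder heads, its lowest head library, pomca was called there (0.82, adjusted p 0.0164), and DESeq2 called it with all libraries kept (0.73, adjusted p 0.0285).

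The prolactin and thyrotropin genes rested on fewer counts. The log2 fold change of prl was 1.53 ± 0.44 in MZrlig1 (adjusted p 0.0326) and 1.61 ± 0.50 in wildtype (adjusted p 0.0369), and each call was lost on leaving out any of 5 libraries, in MZrlig1 larval replicates a and c, bad-responder heads 1 and 3 and good-responder head 2, and in wildtype larval replicates b and c and the 3 bad-responder heads. For tshba it was 1.72 ± 0.82 in MZrlig1 (adjusted p 0.178) and 1.74 ± 0.50 in wildtype (adjusted p 0.0262). The wildtype call of tshba was lost without larval replicate b (0.0778) or c (0.101) or without bad-responder head 4 (0.0543).

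Of the hypothalamic genes, oxt had 6.57 to 22.6 CPM with a median of 8.29 in MZrlig1 heads, against 1.56 to 3.18 CPM in MZrlig1 larvae (log2 fold change 2.31 ± 0.40, adjusted p 0.00219). Wildtype heads had 6.77 to 13.7 CPM with a median of 9.81, against 2.32 to 2.61 CPM in wildtype larvae (1.98 ± 0.25, adjusted p 0.000413). Every head library lay above every larval library, and the share of all genes for which this held is not given here. The log2 fold changes of avp were 2.14 ± 0.42 in MZrlig1 and 1.74 ± 0.46 in wildtype (lost without larval replicate c, adjusted p 0.0544), and those of crhb were 1.30 ± 0.23 in MZrlig1 and 1.26 ± 0.28 in wildtype. For hcrt they were 1.15 ± 0.58 in MZrlig1 (adjusted p 0.204) and 2.4 ± 0.48 in wildtype (adjusted p 0.00447), with 4 to 14 counts per MZrlig1 head library and 7 to 20 per wildtype head library.

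The exception was agrp, with a log2 fold change of 0.65 ± 0.27 in MZrlig1 (adjusted p 0.123) and 0.29 ± 0.28 in wildtype (adjusted p 0.483). Heads had 3.28 to 9.16 CPM in MZrlig1 and 3.05 to 7.13 CPM in wildtype, which overlapped the 2.97 to 4.58 CPM of MZrlig1 larvae and the 2.99 to 3.68 CPM of wildtype larvae. The 95% confidence intervals were 0.06 to 1.24 in MZrlig1 and -0.33 to 0.91 in wildtype. Summed neuron markers (11 identifiers, none at 0) were 2816 to 3829 CPM in MZrlig1 heads and 2411 to 2525 CPM in MZrlig1 larvae, and 2432 to 3666 CPM in wildtype heads and 2094 to 2346 CPM in wildtype larvae. Their part in the head differences was not tested.

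**Figure D2:**
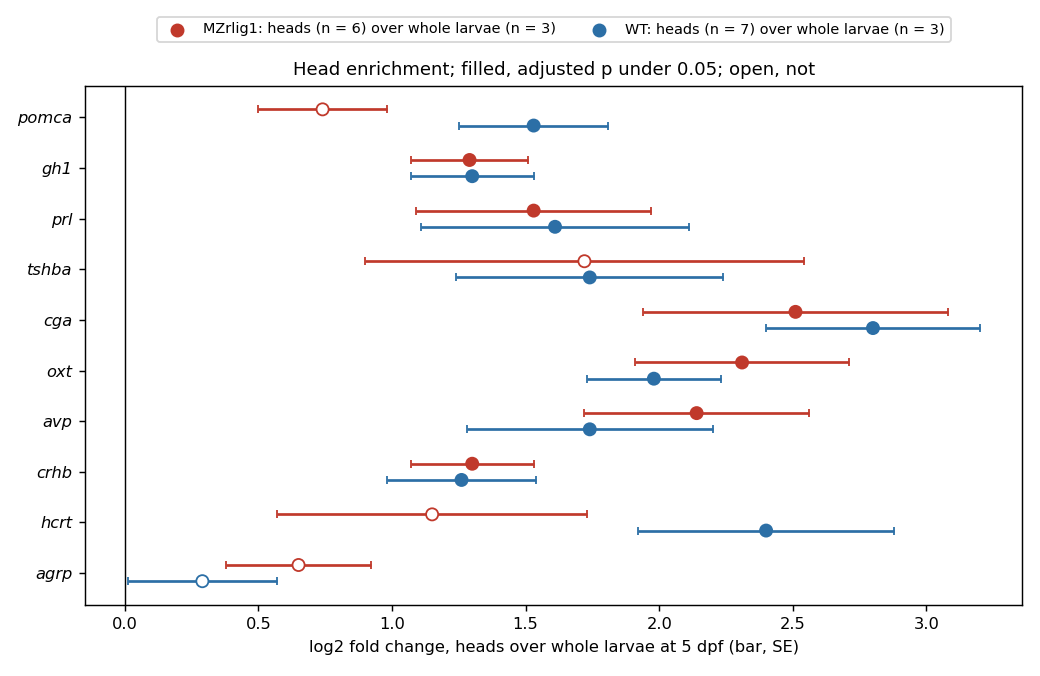
Log2 fold change of heads over whole larvae at 5 dpf for each gene in MZrlig1 (red, upper point) and wildtype (blue, lower point), with SE bars. Filled points passed an adjusted p of 0.05, and agrp is the one gene that passed in neither genotype.

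No gene of the 10 differed between MZrlig1 and wildtype by the test, at either age or in heads. At 1 dpf only agrp passed the filter, and none of all genes tested was called (0%, with 0.674% under an unadjusted p of 0.05). Without MZrlig1 replicate a, agrp and prl passed and neither was called, while 1.03% of all genes were. Whole larvae at 5 dpf had 7 tested and 0 called, while 1.02% of all genes were called. Heads had 10 tested and 0 called in good responders (0.708% of all genes), in bad responders (0.983%) and averaged over behaviour (2.73%). DESeq2 also called none of the 10. At an unadjusted p under 0.05 there were 0 of the list at 1 dpf and 0 at 5 dpf (10.2% of all genes), 1 in good responders (10.2%), 1 in bad responders (6.88%) and 0 on average (11.5%).

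In whole larvae, pomca had the widest difference, 9.64 ± 1.93 CPM in MZrlig1 and 5.91 ± 2.88 CPM in wildtype (SD, n = 3 each), with overlapping libraries. The log2 fold change was 0.70 ± 0.32 with a 95% confidence interval of -0.03 to 1.44 and an adjusted p of 0.509. Wildtype replicate c had the lowest pituitary sum of the 6 larval libraries, 11.7 CPM over the 5 pituitary genes against 19.9 to 30.2 in the others, whereas its hypothalamic sum of 10.8 CPM lay among theirs. Without it the log2 fold change of gh1 was -0.07 instead of 0.19. The interval of gh1 was -0.40 to 0.79, that of agrp -0.38 to 0.71, that of crhb -0.33 to 0.71 that of oxt -0.71 to 0.65, that of avp -1.46 to 1.1 and that of prl -1.80 to 1.38. At 1 dpf the log2 fold change of agrp was -1.07 ± 1.36 (adjusted p 0.968), and -0.52 ± 0.28 without MZrlig1 replicate a (adjusted p 0.738).

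In heads averaged over behaviour, the 95% confidence interval of the log2 fold change was -0.20 to 0.52 for gh1, -0.51 to 0.28 for pomca and -0.26 to 0.64 for crhb. All 3 intervals lie within 1 log2 unit of 0. So do the wider ones of prl (-0.90 to 0.26), hcrt (-0.91 to 0.60), avp (-0.42 to 0.80) and oxt (-0.29 to 0.83). The intervals of tshba (-1.57 to 0.26), cga (-1.12 to 0.32) and agrp (-0.01 to 1.01) reach beyond 1 log2 unit. Both tshba and hcrt rested on 1 to 25 counts per head library.

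The smallest unadjusted p of the genotype comparisons was that of tshba in bad-responder heads. MZrlig1 had 0.860, 0.0806, 0.549 and 0.176 CPM (14, 1, 8 and 3 counts), and wildtype had 1.033, 1.417 and 1.48 CPM (15, 24 and 25 counts). The groups did not overlap, and MZrlig1 was the lower one, as was so for 6.9% of all genes in this comparison. The log2 fold change was -1.60 ± 0.56 (unadjusted p 0.0134, adjusted p 0.411). It was -2.23 without MZrlig1 replicate 1 and -1.32 without MZrlig1 replicate 2, the library with 1 count, whose summed retina and neuron markers were the highest of the 13 head libraries. In good responders tshba had 0.955 and 1.033 CPM in MZrlig1 and 0.465, 1.29, 0.760 and 0.855 CPM in wildtype (0.29 ± 0.63). The interaction of genotype and behaviour was -1.89 ± 0.84 (unadjusted p 0.0413, adjusted p 0.856). The partner subunit cga differed by -0.72 ± 0.43 in bad responders (adjusted p 0.946), and prl, which also did not overlap there, by -0.42 ± 0.35. The log2 fold changes of the remaining genes in bad responders lay between those of pomca (-0.41 ± 0.24) and avp (0.50 ± 0.38), with gh1, oxt, hcrt, agrp and crhb in between.

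In good-responder heads agrp had 6.29 and 9.16 CPM in MZrlig1 and 3.05, 7.13, 3.74 and 3.63 CPM in wildtype. Replicate 2 of wildtype lay between the MZrlig1 values and the other 3 wildtype libraries below both. The log2 fold change was 0.86 ± 0.35 (unadjusted p 0.0278, adjusted p 0.4). For gh1 the MZrlig1 libraries, 38.1 and 40.2 CPM, lay above the wildtype ones, 23.8, 36.9, 24.7 and 29.98 CPM, as was so for 6.05% of all genes, and the log2 fold change was 0.48 ± 0.25 (adjusted p 0.532). The difference of oxt was 0.62 ± 0.38, and -0.19 without MZrlig1 replicate 3. Those of prl, hcrt, avp, cga, crhb and pomca lay between -0.22 and 0.18.

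**Figure D3:**
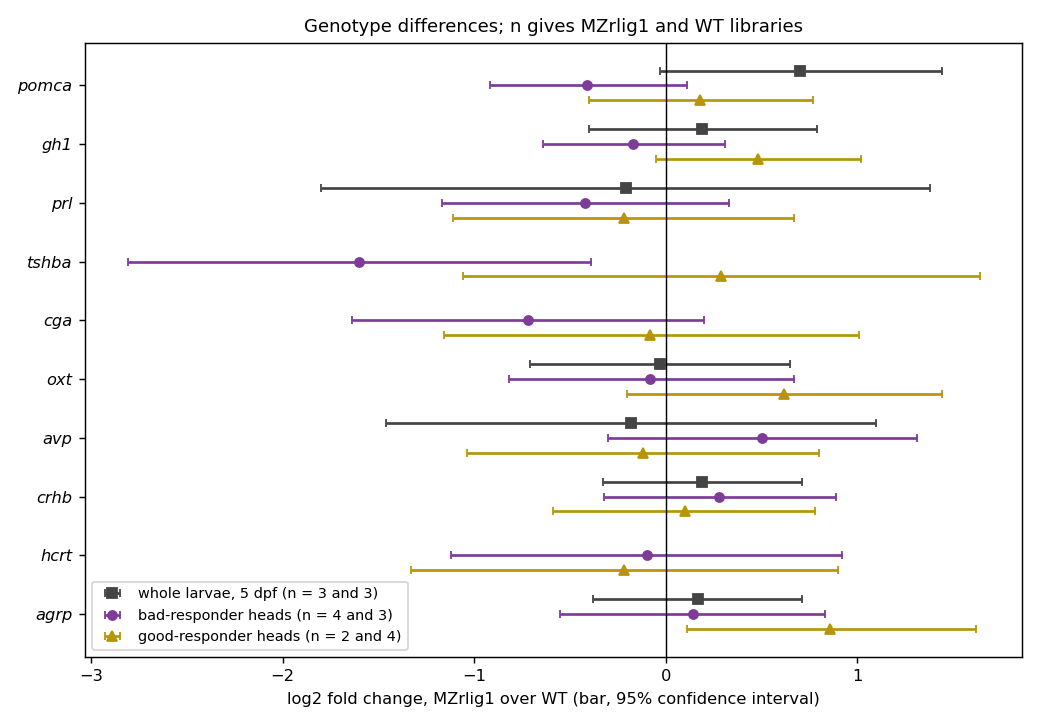
Log2 fold change of MZrlig1 over wildtype with 95% confidence intervals in whole larvae at 5 dpf (grey squares), bad-responder heads (purple circles) and good-responder heads (ochre triangles). Genes without a grey square did not pass the filter in whole larvae, and the 2 intervals that leave out 0, for tshba in bad and agrp in good responders, belong to differences that failed the correction over all genes.

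Responders that differed in the motion test did not differ in these genes by the test. In MZrlig1 heads 0 of 10 were called between bad and good responders (0.00466% of all genes, with 5.29% under an unadjusted p of 0.05), and in wildtype heads 0 of 10 (0%, with 0.778% unadjusted). The interaction called 0 of 10 (0%, with 3.81% unadjusted). DESeq2 gave 0 calls for the list in all 3. Unadjusted p-values under 0.05 came up for oxt and agrp in MZrlig1, for none in wildtype and for tshba in the interaction. These comparisons share head libraries with those of genotype.

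In MZrlig1, oxt had 6.57, 13.5, 7.34 and 7.43 CPM in bad and 9.16 and 22.6 CPM in good responders. Bad-responder replicate 2 and good-responder replicate 3 set the overlap and the spread. The log2 fold change was -0.91 ± 0.38 (adjusted p 0.821), and it was -0.09 without good-responder replicate 3. For agrp, the 4.67, 5.24, 5.56 and 3.28 CPM of bad responders lay below the 6.29 and 9.16 CPM of good responders, as was so for 5.54% of all genes (-0.76 ± 0.35, adjusted p 0.821). In wildtype, the widest differences were those of cga, with 4.34 ± 1.15 CPM in bad (n = 3) and 2.56 ± 0.701 CPM in good responders (n = 4, 0.77 ± 0.43), and of hcrt, with 0.614 ± 0.118 CPM in bad and 1.033 ± 0.260 CPM in good responders (-0.74 ± 0.46), where each adjusted p was 1. In MZrlig1 the difference of hcrt was -0.62 ± 0.53, with 0.246, 0.887, 0.412 and 0.761 CPM in bad and 1.11 and 0.620 CPM in good responders.

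The widest difference by behaviour in MZrlig1 was that of tshba, whose bad-responder values given above lay below both good-responder values (-1.25 ± 0.65, unadjusted p 0.0734, adjusted p 0.821). It was -1.88 without bad-responder replicate 1 and -1.0 without bad-responder replicate 2. In wildtype tshba differed by 0.64 ± 0.54. For pomca the log2 fold change was -0.42 ± 0.27 in MZrlig1 and 0.17 ± 0.24 in wildtype, and for gh1 it was -0.35 ± 0.25 in MZrlig1 and 0.30 ± 0.22 in wildtype. For both the interaction missed the threshold (-0.59 ± 0.36 for pomca and -0.65 ± 0.33 for gh1, adjusted p 0.856 each). The interactions of prl, cga, hcrt, oxt and crhb lay between those of agrp (-0.72 ± 0.48) and avp (0.62 ± 0.57). The prl gene differed by 0.31 ± 0.41 in MZrlig1 and 0.52 ± 0.35 in wildtype, avp by 0.35 ± 0.43 and -0.28 ± 0.38, and crhb by 0.20 ± 0.32 and 0.02 ± 0.28, in the same order of genotypes. The remaining differences were 0.12 ± 0.51 for cga in MZrlig1, and -0.21 ± 0.35 for oxt and -0.04 ± 0.32 for agrp in wildtype.

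**Figure D4:**
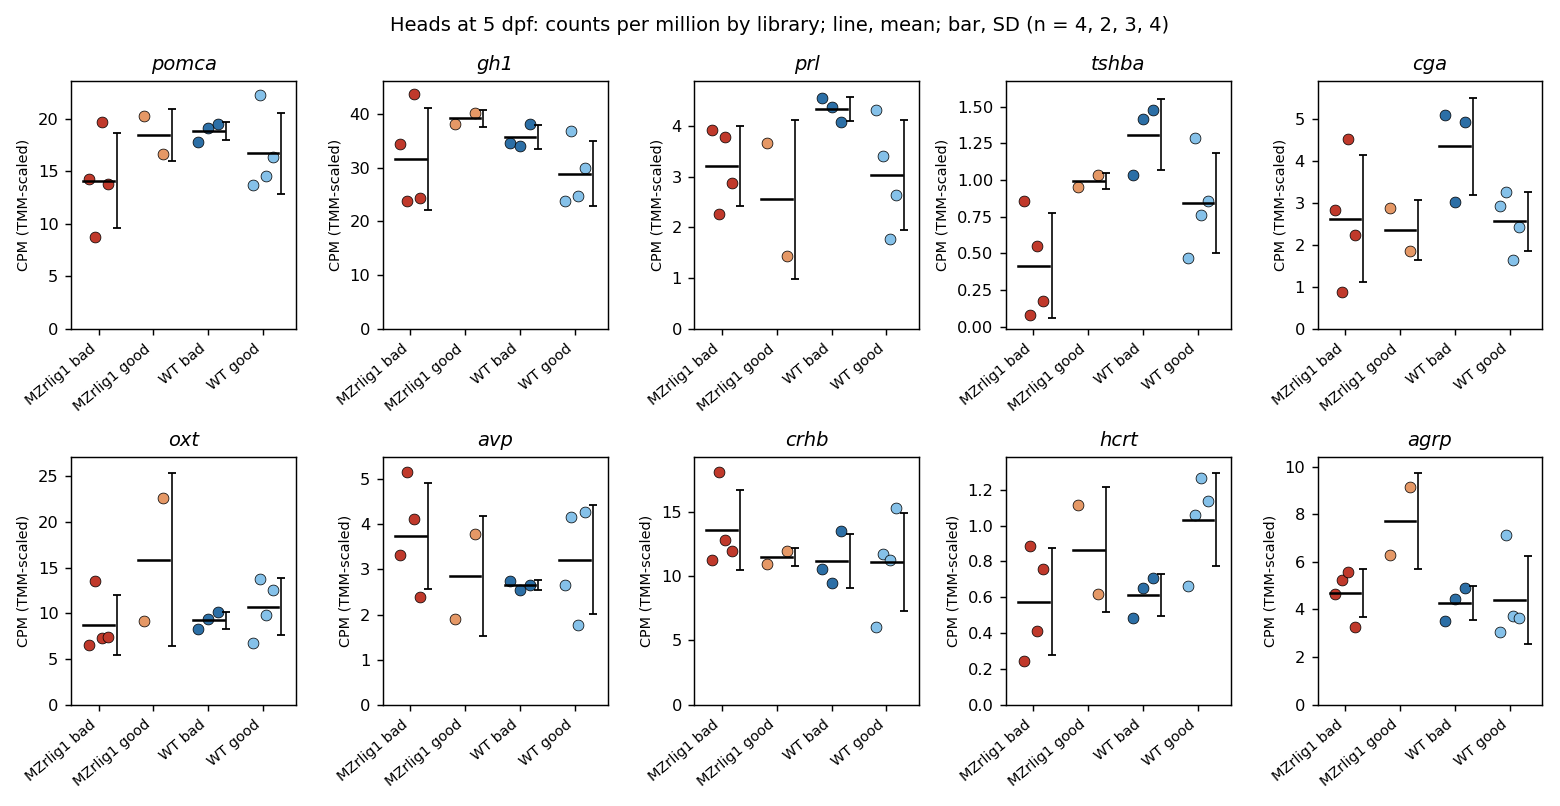
TMM-scaled CPM (linear axes) of the 10 genes in each of the 13 head libraries, in the order MZrlig1 bad, MZrlig1 good, wildtype bad and wildtype good responders. Lines are means and bars are SDs, and the high oxt point among MZrlig1 good responders is replicate 3 at 22.6 CPM.

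Some of the pituitary genes varied together across the head libraries, and 1 library stood apart in several of them. Replicate 2 of MZrlig1 bad-responder heads was the lowest of the 13 in pomca (8.71 CPM), gh1 (23.7), tshba (0.0806) and cga (0.887), and rank 3 from the lowest in prl (2.26). The same library was the highest in avp (5.16 CPM) and crhb (18.1), so that its pituitary genes summed to 0.829 times its hypothalamic genes, against 1.27 to 2.47 times in the other 12. Its summed neuron markers (3829 CPM) and retina markers (13344 CPM, against 7093 to 9859 CPM) were the highest of the 13. Their part in its pituitary levels was not tested. MZrlig1 good-responder replicate 3 was the highest in oxt and agrp and the lowest in prl (1.45 CPM).

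**Figure D5:**
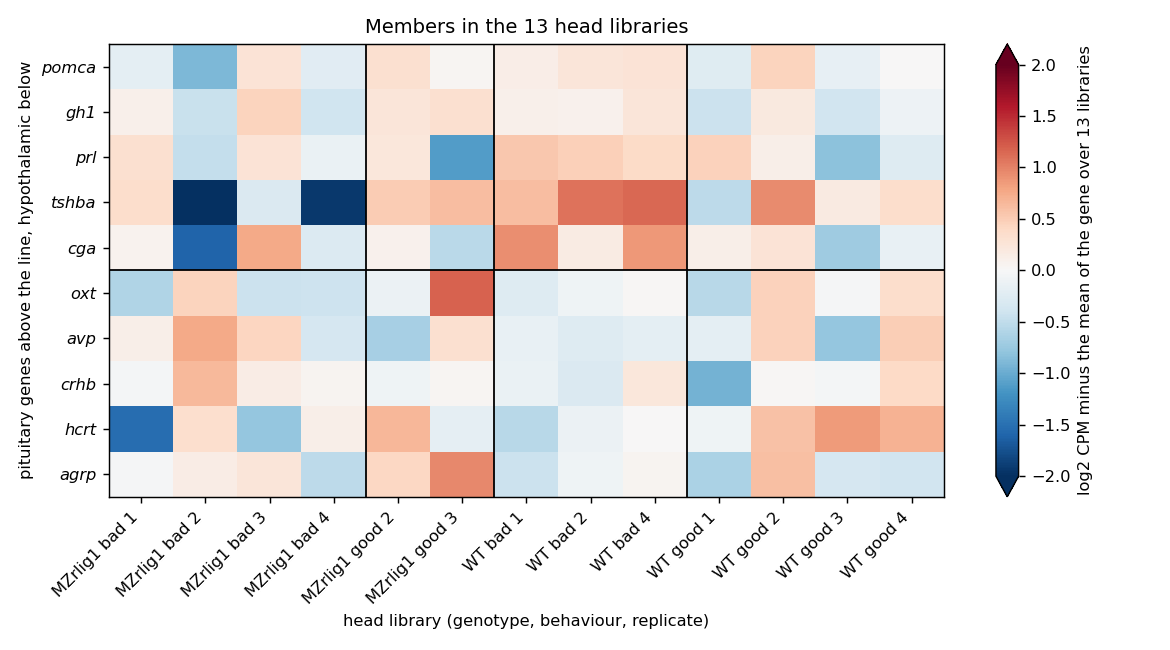
Log2 CPM of each gene minus its mean over the 13 head libraries, pituitary genes above the horizontal line and hypothalamic genes below it, libraries ordered by group. Colours stop at 2 log2 units in either direction, and the column of MZrlig1 bad replicate 2 is low above the line and high below it.

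Over the 13 head libraries, Pearson's r was computed for all 45 pairs of genes on log2 CPM, with permutation p-values adjusted over the 45. The share of pairs of all genes that would pass in these libraries was not computed. The counts below therefore describe these pairs alone and no trait particular to pituitary genes. Of the 10 pairs of pituitary genes all had r above 0, with a median of 0.65, and 4 passed while 6 did not. These were pomca with gh1 (r 0.78, rho 0.80, permutation p 0.00082, adjusted p 0.0184), pomca with tshba (r 0.83, rho 0.71, permutation p 0.00066, adjusted p 0.0184), pomca with cga (r 0.78, rho 0.74, permutation p 0.00234, adjusted p 0.0334) and prl with cga (r 0.75, rho 0.76, permutation p 0.00297, adjusted p 0.0334). By Spearman's rho, pomca with gh1 and prl with cga passed (permutation p 0.00142 and 0.00328, adjusted p 0.0492 for both), while pomca with tshba and with cga did not (permutation p 0.00795 and 0.00542, adjusted p 0.0715 and 0.061). The subunit pair, tshba with cga, had r 0.63 (permutation p 0.0231, adjusted p 0.108). The lowest were those of prl with gh1 (r 0.24, rho 0.02), with tshba (r 0.26, rho 0.29) and with pomca (r 0.37, rho 0.23).

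The relations of pomca with gh1 and of prl with cga kept an adjusted permutation p under 0.05 in smaller sets of libraries. Without the 2 libraries farthest from the median of the first gene, r was 0.84 and 0.82, and without MZrlig1 bad-responder replicate 2, a choice made after seeing the data, it was 0.81 and 0.80. Those of pomca with tshba and with cga were 0.63 and 0.60 without the 2 farthest (adjusted permutation p 0.196 and 0.295) and 0.66 and 0.57 without MZrlig1 bad-responder replicate 2 (0.125 and 0.278), so that these calls, though not the sign of r, rest on those libraries. None of the 10 hypothalamic pairs (median r 0.42) or of the 25 pairs between the organs (median r -0.16) passed by Pearson's r. The median between the organs was 0.18 without MZrlig1 bad-responder replicate 2. The closest were agrp with oxt (r 0.70, rho 0.60) and agrp with gh1 (r 0.70, rho 0.79), each with an adjusted permutation p of 0.0592 for r, and agrp with oxt had r 0.26 without its 2 farthest libraries. The pair agrp with gh1, which joins the organs, did pass by Spearman's rho (permutation p 0.0025, adjusted p 0.0492) and by Pearson's r without MZrlig1 bad-responder replicate 2 (r 0.80, adjusted p 0.0294), but not without its 2 farthest libraries (r 0.56, adjusted p 0.325). Genotypes and behaviours are pooled in these relations.

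For each gene the most similar other gene over the 13 head libraries was found among 21454 genes, as a description with no test. How high the best r of so many genes would be without any relation was not computed, so no relation is drawn from these picks. The vacuolar ATPase subunit ATP6V1B2 followed oxt (r 0.97, rho 0.99), the chaperone gene dnajc3a followed prl (r 0.95, rho 0.86), and scg2b, a secretogranin of hormone granules, followed crhb (r 0.92, rho 0.80). The intermediate filament gene PRPH followed agrp (r 0.92, rho 0.92) and the myelin gene mbpa followed gh1 (r 0.91, rho 0.82). The remaining genes nearest to a member were BMP8A for pomca (r 0.92), LOXL3 for tshba (r 0.92), zgc:63972 for avp (r 0.91), si:dkey-4p15.5 for cga (r 0.90) and GRIK5 for hcrt (r 0.88). The pick for pomca, tshba and hcrt changed with the prior count.

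Other genes of these axes were described from lists. A list gene low at 1 dpf could pass the filter through 5 dpf alone, and a fall could hardly have been called for it. Of the 31 neuropeptide identifiers, 9 passed in the 1 dpf libraries without MZrlig1 replicate a. The counts of rises with age are therefore descriptions. Between 1 and 5 dpf in wildtype, 21 of 23 tested hypothalamic neuropeptide genes beyond the 10 rose and 1 of the 4 identifiers named CARTPT, a name of appetite-suppressing peptides, fell (ENSDARG00000035852, -0.89 ± 0.33), with a median log2 fold change of 3.53 beside 0.0171 over all genes. The granule and processing genes rose in 13 of 14 tested, while 39% of all genes rose. Of these scg2b had 132 ± 1.81 CPM at 5 dpf and 7.53 ± 0.958 CPM at 1 dpf (n = 3 each), and the carboxypeptidase gene CPE, which trims hormone precursors, 364 ± 8.79 and 27.4 ± 2.86 CPM at 5 and 1 dpf. Pituitary transcription factors split into 5 higher and 4 lower of 11 tested, and hypothalamic ones into 3 higher and 4 lower of 15. Of the hypothalamic factors 1 of the 2 identifiers named OTP, ENSDARG00000014201, rose (log2 fold change 1.75 ± 0.14) and SOX3 fell (-3.00 ± 0.15). Receptors of these hormones rose in 10 of 12 tested, CRHBP, which binds the crhb peptide, by 2.80 ± 0.25. Interrenal and glucocorticoid genes rose in 13 of 15, and the 1 that fell, hsd3b2, had 0 CPM at 5 dpf and 2.61 ± 0.640 CPM at 1 dpf. Thyroid axis genes rose in 10 of 15, while duox (-2.93 ± 0.20) and 1 of 2 identifiers of the receptor name TRHR (ENSDARG00000076546, -1.24 ± 0.41) fell. In MZrlig1 with replicate a included, 9 of 22, 2 of 14, 0 of 11, 1 of 14, 1 of 12, 3 of 15 and 2 of 14 rose in the same lists in the same order, while 7.59% of all genes rose, and SOX3 was the 1 that fell. Without replicate a, 21 of 23, 13 of 14, 6 of 11, 3 of 14, 10 of 15, 13 of 16 and 8 of 15 rose, while 36.7% of all genes rose, and 4 pituitary and 4 hypothalamic transcription factors, 1 receptor, 2 interrenal and 2 thyroid genes fell.

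Of the other neuropeptide genes, 14 of 29 tested in MZrlig1 and 14 of 27 tested in wildtype were higher in heads than in whole larvae and none was lower, while 8.21% of all genes rose in MZrlig1 and 13.4% in wildtype. The remaining 15 and 13 did not pass. A list gene near 0 in whole larvae could pass the filter through the heads alone. A lower level in heads could hardly have been called for such a gene, and how many there were is not given here. The melanin-concentrating hormone gene pmchl had 11.6 ± 2.38 CPM in MZrlig1 heads (n = 6) and 1.12 ± 0.625 CPM in MZrlig1 larvae (n = 3), and 9.62 ± 2.44 CPM in wildtype heads (n = 7) and 1.41 ± 0.285 CPM in wildtype larvae (n = 3). The prolactin paralogue prl2 rose in both genotypes (2.91 ± 0.89 in MZrlig1, adjusted p 0.0421, and 2.42 ± 0.68 in wildtype, adjusted p 0.0234), but from levels near 0. It had 0.793 ± 0.351 CPM in MZrlig1 heads and 0.0985 ± 0.1705 CPM in MZrlig1 larvae. In wildtype it had 0.704 ± 0.359 CPM in heads and 0.1195 ± 0.0909 CPM in larvae. The pituitary transcription factors rose in 1 of 12 tested in MZrlig1 and 5 of 11 in wildtype, with pitx1 in both (0.52 ± 0.16 and 0.79 ± 0.15 in that order). The thyroglobulin gene TG, the hormone precursor of the thyroid, rose by 2.20 ± 0.21 in MZrlig1 and 2.52 ± 0.23 in wildtype. The glucocorticoid-responsive gene FKBP5 had 253 ± 63.6 CPM in MZrlig1 heads and 53.4 ± 27.6 CPM in MZrlig1 larvae, and 229 ± 58.6 CPM in wildtype heads and 110 ± 5.37 CPM in wildtype larvae. The calls by list in MZrlig1 were 4 higher of 15 hypothalamic transcription factors, 2 higher and 1 lower of 15 receptors, 4 higher and 1 lower of 15 processing genes, 5 higher and 1 lower of 16 interrenal genes and 5 higher and 1 lower of 17 thyroid genes. The lower ones in MZrlig1 were prlrb, PCSK5, NR3C1 and IYD in this order of lists. In wildtype the calls were 8 higher of 15, 2 higher and 1 lower of 15, 7 higher and 1 lower of 15, 3 higher of 16 and 3 higher of 17, with prlrb and PCSK5 again the lower ones.

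By genotype, few genes of these lists were called. The lists were chosen with earlier results of these data known, so the counts below are descriptions and test no list. In whole larvae at 5 dpf, 3 of 15 interrenal and glucocorticoid genes were called, against 1.02% of all genes. The glucocorticoid-responsive transcription factor KLF9 fell to 17.2 ± 1.071 CPM in MZrlig1, against 38.2 ± 10.5 CPM in wildtype (n = 3 each, log2 fold change -1.15 ± 0.18, adjusted p 0.023), and 1 of 2 identifiers of the clock gene name PER1 (ENSDARG00000056885) fell by 0.67 on the log2 scale (adjusted p 0.0359). The glucocorticoid receptor gene NR3C1 rose by 0.51 ± 0.10 (adjusted p 0.0478). Apart from the list counts without replicate a of 1 dpf, these and other list and marker calls are given for the main test only. Over all genes, that test called 209 in these larvae, and 49 to 375 on leaving out single libraries. In the same larvae liver markers (8, none at 0) summed to 3955 to 5414 CPM in MZrlig1 and 3089 to 3994 CPM in wildtype, and 1 of them was called, the transferrin gene tfa, with 1723 ± 263 CPM in MZrlig1 and 954 ± 28.7 CPM in wildtype (n = 3 each, 0.85 ± 0.14, adjusted p 0.0275). Exocrine pancreas markers (5, none at 0) summed to 1962 to 2398 CPM in MZrlig1 larvae and 787 to 2246 CPM in wildtype larvae. In heads averaged over behaviour, TG measured 75.6 ± 17.3 CPM in MZrlig1 (n = 6) and 49.7 ± 12.9 CPM in wildtype (n = 7), with overlapping libraries (0.65 ± 0.16, adjusted p 0.0479). The hydrogen peroxide-producing oxidase gene duox measured 0.756 ± 0.153 CPM in MZrlig1 and 2.36 ± 0.583 CPM in wildtype (-1.57 ± 0.26, adjusted p 0.00358), and was also called in bad responders (-1.50 ± 0.33, adjusted p 0.0466). These were 2 of 17 thyroid axis genes tested, against 2.73% of all genes, and they went in opposite directions. In wildtype whole animals duox was at 23.5 ± 2.84 CPM at 1 dpf and 3.30 ± 0.714 CPM at 5 dpf. Liver markers summed to 4351 to 7730 CPM in MZrlig1 heads and 2229 to 6294 CPM in wildtype heads. Exocrine pancreas markers summed to 1019 to 5274 CPM in MZrlig1 heads and 265 to 5593 CPM in wildtype heads. The 3 erythrocyte markers summed to 16.3 to 23.35 CPM in MZrlig1 heads and 23.3 to 37.9 CPM in wildtype heads. Only 1 of these 3 was above 0 in MZrlig1 bad-responder replicate 2 and in wildtype good-responder replicates 1 and 3. The part of the liver, pancreas and erythrocyte markers in the differences was not tested. No other gene of the lists or markers was called by genotype, and none by behaviour or by the interaction.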

How the data were processed

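Poly(A)-enriched libraries of pooled zebrafish were sequenced, and the authors deposited raw counts and FPKM per gene, for whole animals and heads in separate tables. Per the submitters' processing notes, STAR 2.7.10b, Salmon 0.14.1 and DESeq2 1.42.1 were used with GRCz11; which tool gave the counts, and whether strand was used, is not given in the sources used here. The deposited normalised table was not used. From the counts, edgeR 4.0.16 (R 4.3.3) computed TMM factors, filterByExpr and robust quasi-likelihood tests, with Benjamini-Hochberg adjustment over all genes of a comparison. A gene low in some groups can pass the filter through another group alone, and its call can then hardly go the other way. Heads were fitted as 4 groups. The deposited FPKM served only to order levels between genes. Heads and larvae come from 2 tables, whose raw counts were joined before scaling. Folds against 3 counts or fewer are count ratios with exact intervals, or bounds against 3 counts over the group, and cover counting error only. Alternatives were DESeq2 1.42.0, its size factors, no filter, a replicate block and leaving out each library. The tests were checked on simulated data. Each of the 10 genes is named in each comparison of heads and, where it was tested, of whole animals, some by a range; list genes are named where called by genotype or behaviour, and otherwise from those with the smallest p in a list. The members and lists were chosen with earlier results of these data known. The list and marker counts are descriptions. Sums of markers are TMM-scaled CPM.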

Additional observations from a re-analysis of the deposited data

Results flagged for a closer look

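In 20 groups of 4 head libraries (10 genes, 2 groups), 2 held a library far from the other 3, where chance gives about 1 in 20. Replicate 2 of MZrlig1 bad-responder heads measured 13.5 CPM of oxt, against 6.57, 7.34 and 7.43 CPM in the other 3. Replicate 2 of wildtype good-responder heads measured 7.13 CPM of agrp, against 3.05, 3.74 and 3.63 CPM in the other 3.

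Counts of some genes appeared in whole embryos before the hypothalamus and pituitary form, in libraries the comparisons above do not use. At the 4-cell stage prl already held 7 to 17 counts in MZrlig1 (0.702 CPM on average) and 2 to 16 counts in wildtype (0.569 CPM). At sphere, the 4 libraries held at least 25 counts of crhb (1.92 CPM on average in MZrlig1 and 2.07 CPM in wildtype) and at least 10 counts of prl (0.721 CPM in MZrlig1 and 0.784 CPM in wildtype). At shield, the 6 libraries held at least 6 counts of crhb (0.676 CPM in MZrlig1 and 0.780 CPM in wildtype), above the 3 counts that a count of 0 allows. At bud, crhb was at 0 to 3 counts in MZrlig1 and 1 to 3 in wildtype and prl was at 0 in all 6 libraries. There pomca held 2 to 13 counts in MZrlig1 (0.493 CPM) and 0 to 18 counts in wildtype (0.428 CPM).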

How the results depend on the processing

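Of 54 log2 fold changes of the 10 genes, recomputed 702 times in all, 653 kept their direction and side of the threshold, 38 lost the call, 5 gained one and 6 changed sign. The 54 were a chosen part of the fold changes tested. By genotype in bad-responder heads they held only tshba and prl, and by behaviour in wildtype heads only cga. Changes of sign among the rest were not counted. The changes of sign were gh1 at 5 dpf between genotypes (-0.07 without wildtype replicate c, range -0.07 to 0.36 over single libraries left out), oxt at 5 dpf between genotypes (0.20 without MZrlig1 replicate a, 0.02 without wildtype replicate b, range -0.27 to 0.20), oxt between genotypes in good-responder heads (-0.19, range -0.19 to 1.14) and averaged over heads (-0.13, range -0.13 to 0.53), both without MZrlig1 good-responder replicate 3, and prl between ages in wildtype (-0.39 without 5 dpf replicate a, range -0.39 to 1.04). None of these was called. The count of 0 members called held in all 8 genotype, behaviour and interaction comparisons under every alternative run. Between ages in wildtype 5 were called, 8 with no filter and 5 to 6 leaving out single libraries. Between ages in MZrlig1 3 were called, 6 by DESeq2 and 0 to 4 leaving out single libraries, 4 of them without 1 dpf replicate a and 0 without any other library. Heads against whole larvae gave 6 calls in MZrlig1 (4 to 7 leaving out single libraries) and 9 in wildtype (6 to 9). Over all genes, DESeq2 called 15 at 1 dpf between genotypes where edgeR called 0, 379 against 209 at 5 dpf, 443 against 152 in good and 394 against 211 in bad responders, 954 against 586 on average, 5 against 1 by behaviour in MZrlig1 and 6374 against 1796 between ages in MZrlig1. Leaving out single libraries gave 0 to 194 at 1 dpf, 49 to 375 at 5 dpf, 33 to 243, 112 to 243 and 310 to 626 in heads in that order, 0 to 2 by behaviour in MZrlig1 and in the interaction, 0 to 14426 between ages in MZrlig1, and 1878 to 3992 in MZrlig1 and 2893 to 6543 in wildtype for heads against larvae. With the replicate number as a block, members called between ages were 0 in MZrlig1 and 4 in wildtype, and all genes called were 36 at 5 dpf, 47, 88 and 249 in heads and 0 between ages in MZrlig1. The numbers were not taken to pair the libraries, since same-numbered libraries did not deviate together in every pair, and no block was fitted for heads against larvae, whose replicates carry letters in one table and numbers in the other. DESeq2 size factors called 0 genes by behaviour in MZrlig1, against 1. The FPKM of agrp in wildtype larvae was 8.47 from CPM, against 9.64. Depth limits tshba and hcrt, at 1 to 25 counts per head library, and all genes but agrp at 1 dpf. The causes of these changes were not tested.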
